A study of Mus musculus with 6 samples.

Results

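The 3 bulk RNA libraries of mouse submandibular salivary gland organoids (mSGOs) collected on day 7 of culture were described, out of 6 libraries in the whole series. They were chosen by their titles, which name control organoids at 7 days from mouse 1, mouse 2 and mouse 3. The other 3 libraries are control organoids collected at day 5 from the same 3 mice, and no test was made between the days. mSGOs are spherical structures that grow in Matrigel from single cells. By the study's methods, cells of the digested adult gland were first cultured for 3 days. The spheres formed there were then dissociated into the single cells that were plated.

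All mice were C57BL/6, 8 to 12 weeks old, and the study states that only females were used. The organoids were neither irradiated nor treated with a compound. They were grown in WRY medium, which supplies EGF, FGF2, insulin, dexamethasone, the ROCK inhibitor Y27632 and conditioned media with Wnt3a and R-spondin1. Each mouse gave 1 library at day 7, so culture, mouse and library cannot be told apart and there is no replicate within a mouse. In bulk RNA, fewer cells of a type and less RNA per cell cannot be told apart either.

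The salivary duct has a basal layer that expresses keratin 5 and keratin 14 and holds progenitor cells, and a luminal layer that expresses keratins 7, 8 and 18. Basal cells of stratified and glandular epithelia can also enter a squamous programme, in which suprabasal keratins, small proline-rich proteins and late cornified envelope proteins are made and crosslinked into a tough layer under the plasma membrane. The AP-1 transcription factors, dimers of FOS and JUN proteins, are made within minutes of a stimulus through EGF receptor and ERK signalling and act on many squamous genes.

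The QuantSeq 3′ chemistry (Lexogen) yields tags near the poly(A) tail, about 1 per transcript, so levels were not divided by gene length. At day 7 the depth in genes was 2767820 counts for mouse 1, 2837397 for mouse 2 and 2154261 for mouse 3, and 1 count equalled 0.361, 0.352 and 0.464 counts per 1000000 (CPM). All values below are CPM in the order mouse 1, mouse 2 and mouse 3 unless said otherwise. The epithelial markers *Cdh1*, *Epcam*, *Krt5* and *Krt14* were abundant in each library. Markers of other cells were low. The 14 leukocyte markers summed to 9.75, 14.1 and 8.82 CPM with 4 of 14 having any count, and *Cd3e*, *Csf1r* and *Adgre1* were at 0 counts. The 10 endothelial markers summed to 15.5, 14.1 and 26 CPM, nearly all from *Egfl7*, and *Pecam1* and *Cdh5* were at 0 counts. The 12 fibroblast markers summed to 23.1, 25.7 and 23.2 CPM, nearly all from *Fbln1*, and *Col3a1* and *Col1a2* were at 0 counts. The 6 erythroid markers summed to 0.464 CPM at most, and 4 Y-linked genes to 0.705 CPM at most. The 7 muscle markers summed to 9.03, 9.52 and 5.57 CPM, and the 10 epithelial markers to 15317, 12190.0 and 14785 CPM.

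The sequences upstream of the small proline-rich genes are shown because many of these genes and many AP-1 genes differed among the 3 cultures. Whether the differences of the small proline-rich genes and of the AP-1 genes are linked was not tested. RefSeq tables on build GRCm38.p6 held an upstream sequence for 14 of the 16 small proline-rich genes listed. The AP-1 site was searched as TGANTCA on both strands in the 250 bases before the start, and capitals mark each match. The abundant members *Sprr2f* (chr3:92364937-92365186, plus strand), *Sprr2d* (chr3:92338890-92339139, plus strand), *Sprr1a* (chr3:92485882-92486131, minus strand), *Sprr1b* (chr3:92438780-92439029, minus strand) and *Sprr3* (chr3:92458721-92458970, minus strand) read as follows, 5′ to 3′ along the gene.
Sprr2f: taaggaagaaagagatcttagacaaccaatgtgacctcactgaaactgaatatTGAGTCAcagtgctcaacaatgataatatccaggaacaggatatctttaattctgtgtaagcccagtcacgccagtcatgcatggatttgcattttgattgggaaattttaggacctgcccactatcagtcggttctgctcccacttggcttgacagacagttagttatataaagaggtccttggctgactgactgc
Sprr2d: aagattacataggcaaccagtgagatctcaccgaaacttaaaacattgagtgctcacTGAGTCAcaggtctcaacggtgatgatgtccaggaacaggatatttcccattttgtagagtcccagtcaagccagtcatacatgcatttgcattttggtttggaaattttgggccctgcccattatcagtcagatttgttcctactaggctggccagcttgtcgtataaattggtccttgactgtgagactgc
Sprr1a: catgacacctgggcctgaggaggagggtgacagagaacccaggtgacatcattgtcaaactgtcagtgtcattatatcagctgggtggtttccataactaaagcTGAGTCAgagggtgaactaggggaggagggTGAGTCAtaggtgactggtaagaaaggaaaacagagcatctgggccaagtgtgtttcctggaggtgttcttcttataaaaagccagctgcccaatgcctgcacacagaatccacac
Sprr1b: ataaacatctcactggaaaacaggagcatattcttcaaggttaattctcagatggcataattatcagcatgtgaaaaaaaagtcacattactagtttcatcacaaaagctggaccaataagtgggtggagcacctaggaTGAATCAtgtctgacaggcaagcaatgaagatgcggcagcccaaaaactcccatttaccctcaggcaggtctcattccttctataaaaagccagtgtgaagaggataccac
Sprr3: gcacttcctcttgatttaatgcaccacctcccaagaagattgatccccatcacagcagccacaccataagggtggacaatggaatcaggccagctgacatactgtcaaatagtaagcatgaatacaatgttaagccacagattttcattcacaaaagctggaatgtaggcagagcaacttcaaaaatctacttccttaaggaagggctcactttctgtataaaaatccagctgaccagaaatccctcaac

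A match was present upstream of 9 of the 14 small proline-rich genes (64.3%), against 7.82% of all 27025 genes with an upstream sequence and 5.43% of the genes tested at day 7. The *Sprr2* genes with a match are neighbouring relatives with similar upstream sequences. The 9 are therefore not independent, and no enrichment was tested. Within the *Sprr2* group the first base of the match lay 193 bases before the start in *Sprr2d*, *Sprr2e* and *Sprr2i*, 195 in *Sprr2b*, 197 in *Sprr2f* and 198 in *Sprr2h*, and *Sprr2k* held matches at 196 and 182 bases. *Sprr1a* held matches at 146 and 116 bases, and *Sprr1b* held 1 at 111 bases. *Sprr3* held none, and neither did any of the 17 late cornified envelope genes with a sequence. Among called genes lowest in mouse 3, 8.32% held a match. These are matches of letters, not measured binding.

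The mSGO transcriptome at day 7 was led by an unnamed ID, mitochondrial ribosomal RNA and basal keratins. The ID with the highest count, ENSMUSG00000098178, has no name in the annotation used here and was at 172659, 151632 and 186208 CPM, first in every library. The mitochondrial ribosomal RNAs *mt-Rnr2* (40527 ± 8779 CPM (SD, n = 3)) and *mt-Rnr1* (17512 ± 5866 CPM (SD, n = 3)) came next in every library. *S100a6*, which encodes a small calcium-binding protein, was the most abundant nuclear protein-coding gene by mean at 7236 ± 1193 CPM (SD, n = 3). It was followed by the basal keratin gene *Krt14* at 6281 ± 1847 CPM (SD, n = 3). *Krt6a*, which encodes a keratin of activated and duct epithelium, reached 4162 ± 659 CPM (SD, n = 3). *Krt5*, the partner of *Krt14*, reached 4093 ± 1000.3 CPM (SD, n = 3). The ranges of *S100a6*, *Krt14* and the chaperone gene *Hsp90ab1* (3811, 5224 and 7008 CPM) overlapped, whereas *Krt5* and *Krt6a* were below *S100a6* in each library.

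Below them stood *Actb*, the cytoskeletal actin, *Ccnd2*, a G1 cyclin, and *Pabpc1*, the poly(A)-binding protein. *Ccnd2* was at 3120.4 ± 551 CPM (SD, n = 3) and lay above *Ccnd1* in each library, which was at 1917, 1716 and 1549 CPM. *Fabp5*, a fatty acid carrier of squamous epithelium, was at 2859.6 ± 905 CPM (SD, n = 3). *Mt1*, a metallothionein, was at 2023 ± 408 CPM (SD, n = 3), and *Perp*, a desmosome component and p53 target, at 1799.9 ± 516 CPM (SD, n = 3). The small proline-rich gene *Sprr2f* had a mean rank of 22 and ranks of 37, 13 and 118 in the single libraries.

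**Figure D1:**
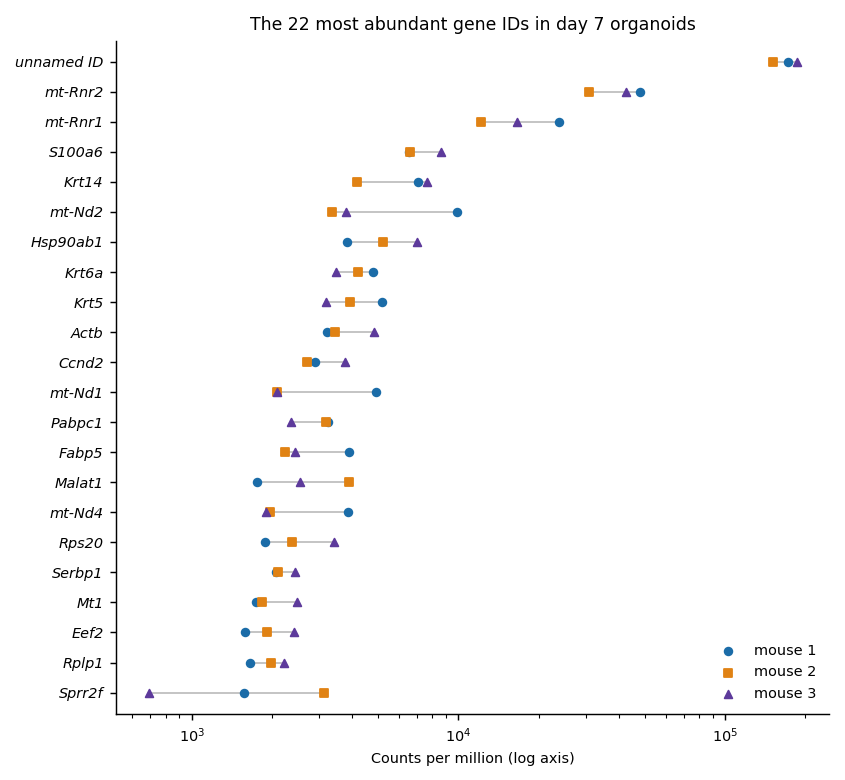
Levels of the 22 IDs with the highest mean at day 7, in CPM on a log axis, with 1 symbol for each mouse and a grey line from the lowest to the highest library. *Sprr2f* spans 1567, 3144 and 690.3 CPM and *mt-Nd2* 9902, 3373 and 3789 CPM, while *S100a6* lies within 6511, 6585 and 8613 CPM.

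A few transcripts took a large part of the counts. The 10 most abundant IDs of each library held 28.7%, 22.6% and 28.4% of counts, and the 50 most abundant held 36.2%, 30.1% and 36.0%, with a mean of 34.1% ± 3.50 (SD, n = 3). Without the unnamed ID, the 50 most abundant held 20.8% ± 2.75. The top 50 of the 3 libraries shared 31 IDs and spanned 72. At 10 CPM or more, 7062 genes were present in all 3 libraries, and 1277 reached 100 CPM in all 3. Among the 100 IDs with the highest mean, 96 were protein-coding and 26 encoded ribosomal proteins or translation factors.

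Markers of ductal, progenitor and acinar cells differed widely in level. The basal duct genes *Krt14* and *Krt5* led, and the luminal duct gene *Krt7* was at 784, 1051 and 1529.5 CPM. *Krt8*, a luminal keratin, was at 73.7, 61.7 and 65 CPM, lower than *Krt7* and *Krt18* in each library. *Cd44*, an adhesion receptor of progenitors, was at 1596, 1135 and 635 CPM, and *Itgb1*, the β1 integrin, at 636, 557 and 579 CPM. The stem/progenitor gene *Sox9* was at 464, 388 and 238 CPM and *Cd24a* at 271, 423 and 306 CPM. The cycling genes *Top2a* and *Mki67* were at 391, 305 and 424 CPM and at 105, 67.7 and 119 CPM, respectively. Acinar products were scarce. *Aqp5*, the apical water channel of acinar cells, was at 9.39, 10.9 and 22.7 CPM. The muscarinic receptor gene *Chrm3* was at 9.39, 14.1 and 19 CPM. *Amy1* reached 1.45 CPM at most, and the secretory product genes *Lpo*, *Prol1*, *Muc5b*, *Lyz1* and *Dcpp1* had 0 counts in each library, which allows up to 1.08, 1.06 and 1.39 CPM for counting error. The 3′ ends of *Dcpp1* and *Lyz1* are 47.4% and 28.3% shared with other genes, so their 0 counts are less certain.

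The replicate cultures were then compared with each other. For each gene with at least 30 counts over the 3 libraries, a chi-square test asked whether the counts differed beyond counting error, and a gene was called when the adjusted p was under 0.05 and the highest library was more than 2-fold above the lowest on the log2(CPM + 1) scale. The test compares these libraries' reads and says nothing about mice as a population. Of 10050 genes tested, 2287 were called, which is 22.8%. The median log2 range was 0.66, and 269 called genes exceeded 4-fold. The same call among the 3 day 5 libraries gave 107 of 9775 genes, or 1.09%, with a median log2 range of 0.33. When all 6 libraries were thinned to 1918198 counts, 23.1% of genes were called at day 7 and 1.14% at day 5. Of the 9454 genes tested at both days, 2056 were called at day 7 and 98 at day 5, and 59 were called at both.

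Mouse 3 stood farthest from the others. Whatever the p, 186 genes were more than 2-fold higher in mouse 1 than in mouse 2 and 315 were more than 2-fold lower. Against mouse 3 these numbers were 1123 and 713 for mouse 1, and 1134 and 255 for mouse 2. The Spearman correlations across genes were 0.958 for mice 1 and 2, 0.894 for mice 1 and 3 and 0.922 for mice 2 and 3, and genes are not independent replicates. Of the called genes 1358 were lowest in mouse 3 (13.5% of genes tested), 724 in mouse 1 (7.2%) and 205 in mouse 2 (2.04%). They were highest in mouse 1 at 783 genes (7.79%), in mouse 2 at 768 (7.64%) and in mouse 3 at 736 (7.32%). Under TMM scaling the called genes highest in mice 1, 2 and 3 were 43.98%, 22.96% and 33.06% of all calls, against 34.2%, 33.6% and 32.2% with library totals, and 59.3% against 59.4% were lowest in mouse 3. With library totals the median difference of mouse 1 minus mouse 2 was -0.13 on the log2 scale, against -0.01 under TMM.

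In 828 called genes 1 library stood more than 2-fold apart from both others while those were within 0.5 on the log2 scale. Mouse 3 was the lower one in 518 and the higher one in 99. Mouse 1 was lower in 115 and higher in 51, and mouse 2 was higher in 34 and lower in 11. The base composition of transcripts moved with mouse 3. From the lowest to the highest of 10 bins of G+C content in the last 500 bases, the median log2 difference of mouse 3 from the mean of the others went from -0.21 to 0.31, that of mouse 1 from 0.02 to -0.19. Genes called and lowest in mouse 3 had a median G+C content of 42.4%, genes called and highest in mouse 3 had 48.3%, and all genes tested had 43.4%. After a correction for this trend, 2049 genes were called, and 1835 of the 2287 calls were among them. The part of base composition in single genes was not tested beyond that correction.

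**Figure D2:**
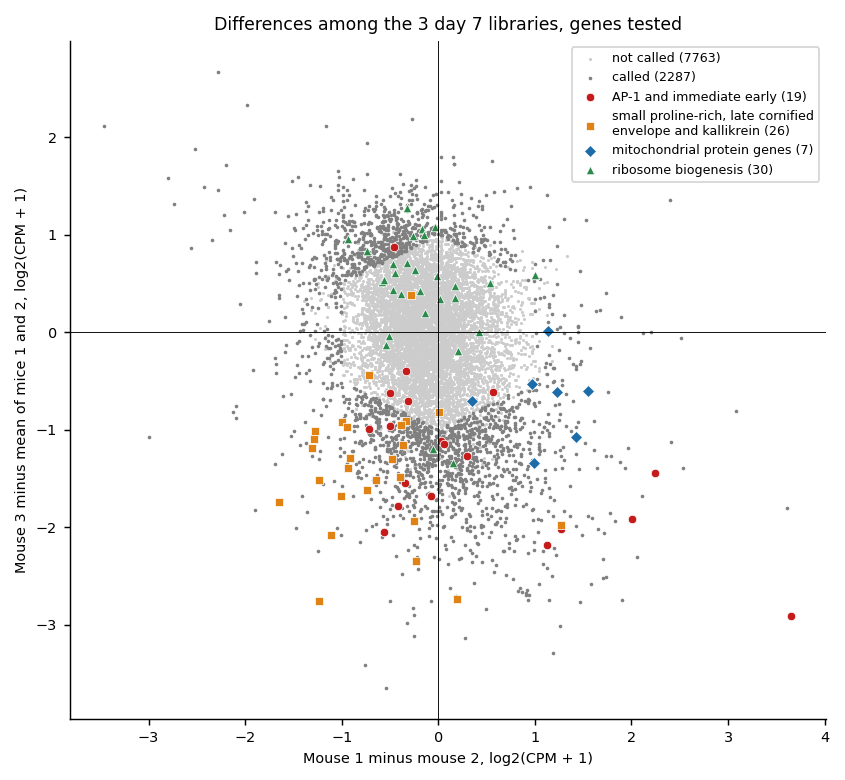
Each point is 1 of the 10050 genes tested, placed by mouse 1 minus mouse 2 (horizontal) and mouse 3 minus the mean of mice 1 and 2 (vertical), both on the log2(CPM + 1) scale. AP-1 and immediate early genes lie mostly below 0, with *Fosb* at the far lower right, small proline-rich, late cornified envelope and kallikrein genes mostly in the lower left, all 7 mitochondrial protein genes to the right and most ribosome biogenesis genes above 0.

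Gene lists were read against the 22.8% of all genes. Of 56 lists with at least 5 members tested, 43 had a larger share of called members, and 20 had more than 2 times that share. The lists were written with earlier results of these data known, so their shares are descriptions. The late cornified envelope genes, kallikreins, suprabasal keratins, mitochondrial protein genes and AP-1 genes had the largest shares. The hemidesmosome and laminin-332 list, which anchors basal cells to the matrix, had 0 of 9 members called, with log2 ranges of 0.06 for *Lamb3* to 0.69 for *Plec*. *Itga6*, the α6 integrin of that structure, was at 1451, 1289.9 and 1763 CPM. The desmosome list had 2 of 11 called, the cholesterol list 3 of 25, glycolysis 5 of 24 and the interferon list 2 of 14. Of all called genes 59.4% were lowest in mouse 3 and 31.7% in mouse 1. Highest in mice 1, 2 and 3 were 34.2%, 33.6% and 32.2% of all called genes. Counts given below of called members highest or lowest in 1 mouse are to be read against these values.

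**Figure D3:**
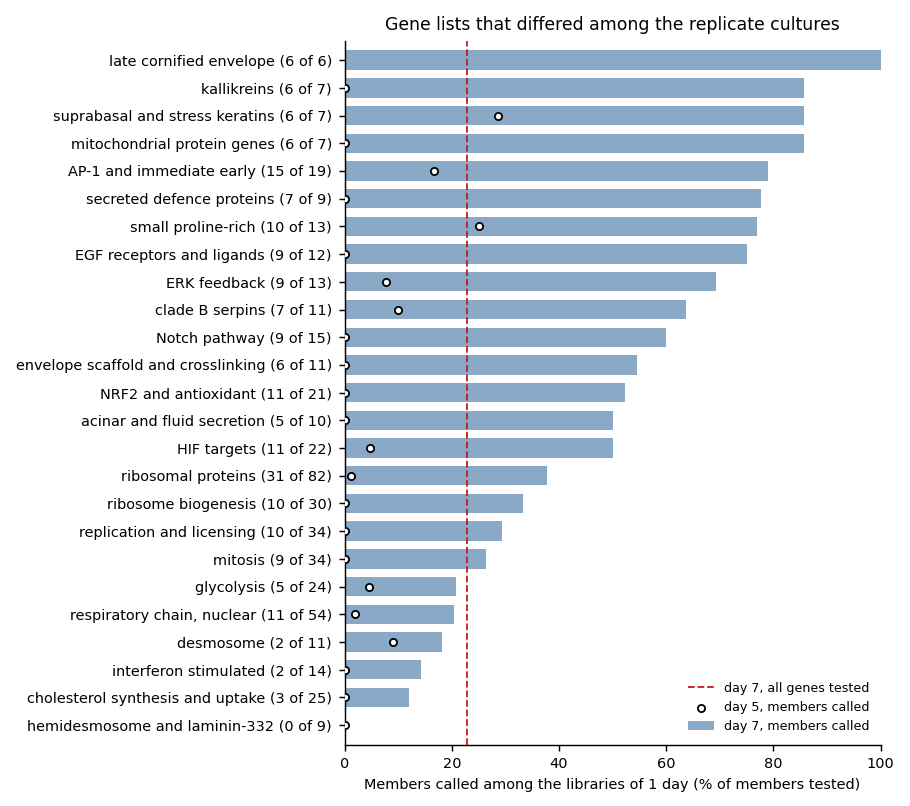
Share of tested members called among the 3 day 7 libraries (bars) and among the 3 day 5 libraries (open circles) for 25 gene lists, with the share of all genes tested at day 7 as a dashed line at 22.8%. Numbers in brackets are members called of members tested at day 7. Late cornified envelope genes had no member tested at day 5.

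The immediate early genes held some of the widest ranges. Of the 19 AP-1 and immediate early genes tested, 15 were called (78.9%), and 14 of the 15 were lowest in mouse 3. *Fosb*, an AP-1 subunit, was at 100.4, 7.05 and 2.79 CPM, high in mouse 1 and low in the others, with a log2 range of 4.74 (chi-square adjusted p = 2.69e-88). *Fos*, its relative, was at 74.1, 14.8 and 11.6 CPM (log2 range 2.57, chi-square adjusted p = 9.23e-40). *Atf3*, a stress-induced partner of JUN proteins, was at 34.7, 13.7 and 4.64 CPM and fell in order from mouse 1 to mouse 3. *Nr4a1*, an orphan nuclear receptor, and *Klf2*, a zinc finger factor, had the same order at 11.9, 4.93 and 0.928 CPM and at 10.1, 1.76 and 0.464 CPM, respectively, where the lowest values rest on 2 and 1 counts.

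A second group was shared by mice 1 and 2 and low in mouse 3. *Junb*, the main JUN protein of differentiating keratinocytes, was at 280.0, 373 and 93.3 CPM (chi-square adjusted p = 2.53e-79). *Zfp36*, which encodes an RNA-binding protein that speeds mRNA decay, was at 67.6, 71.2 and 20.9 CPM. *Klf6* and *Ier5*, stimulus-induced regulators, were at 723, 709 and 329.6 CPM and at 299, 287 and 131 CPM, respectively. *Jund*, another JUN gene, went the other way and was at 114, 157 and 246 CPM, with 32.3% of its 3′ end shared with other genes. *Jun* and *Egr1* were at 571, 708 and 388 CPM and at 157, 106 and 84 CPM, respectively, and did not reach 2-fold. At day 5 the same call took 3 of 18 members. *Fosb* was then at 105, 54.2 and 76.9 CPM and *Fos* at 119, 45.4 and 52 CPM in the same 3 mice, with mouse 1 highest there too, whereas *Junb* was at 118, 135 and 126 CPM.

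The genes that report ERK signalling were also spread. Of 13 tested, 9 were called (69.2%), and 8 of them were lowest in mouse 3. *Dusp1*, a nuclear phosphatase of stress and mitogen kinases, was at 62.1, 74 and 6.96 CPM, with mice 1 and 2 close together and mouse 3 apart (log2 range 3.24, chi-square adjusted p = 5.96e-25). *Dusp6*, the cytoplasmic ERK phosphatase, was at 100.4, 40.2 and 17.2 CPM and *Dusp7*, its close relative, at 531, 323 and 122 CPM. Both fell from mouse 1 to mouse 3. *Spry2*, a feedback inhibitor of receptor kinases, was at 26, 42.3 and 12.5 CPM. *Etv4*, an ETS factor downstream of FGF signals in the gland, was higher in mouse 3 than in the others at 26.7, 27.1 and 73.3 CPM.

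Ligands of the EGF receptor family showed the same tendency. Of 12 receptor and ligand genes tested, 9 were called (75%), 8 of them lowest in mouse 3. *Epgn*, which encodes epigen, was at 20.6, 8.46 and 0.464 CPM, from 57, 24 and 1 counts. *Nrg1*, neuregulin 1, was at 35, 8.46 and 6.03 CPM and stood apart in mouse 1. *Areg*, *Ereg*, *Tgfa* and *Hbegf* had mice 1 and 2 near each other and mouse 3 below, for example *Areg*, amphiregulin, at 82.4, 100.1 and 35.7 CPM and *Tgfa* at 52.4, 52.2 and 17.6 CPM. *Btc*, betacellulin, was lowest in mouse 1 at 6.5, 16.9 and 23.7 CPM. *Errfi1*, an inhibitor of the receptor, was higher in mouse 2 at 31.1, 77.9 and 27.9 CPM. The receptor gene *Egfr* was at 81.3, 84.9 and 52 CPM and was not called. None of the 12 was called at day 5.

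**Figure D4:**
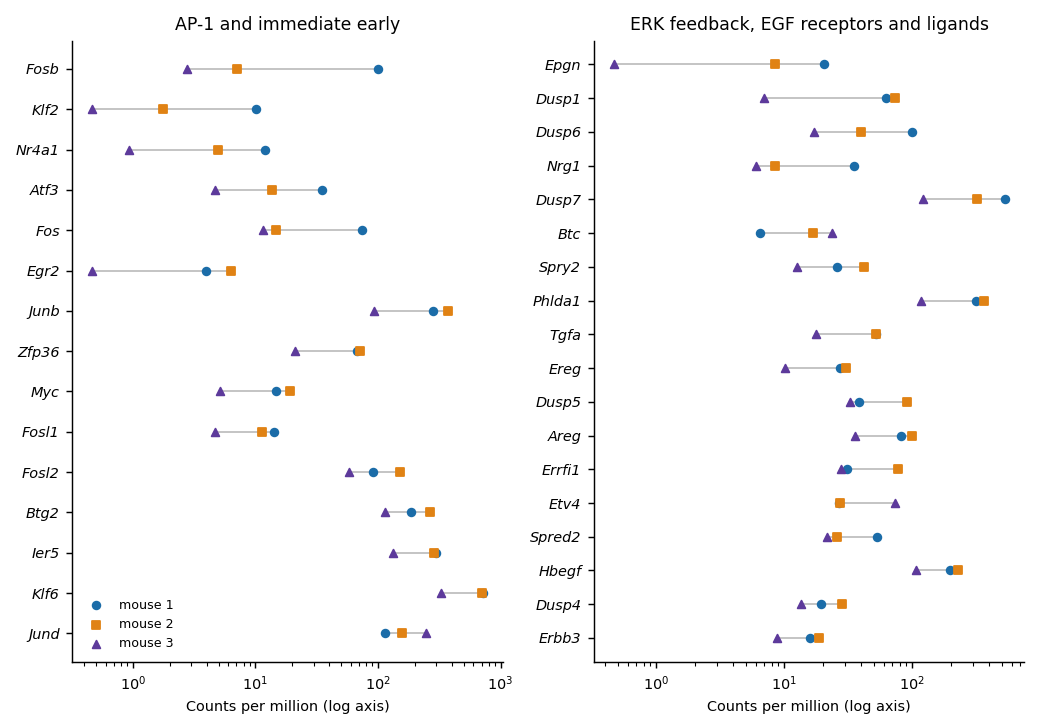
Levels of the called members of the AP-1 and immediate early list (left) and of the ERK feedback and EGF receptor lists (right), in CPM on a log axis, 1 symbol per mouse, ordered by log2 range from the top. Mouse 3 is the lowest symbol in all but *Jund*, *Btc* and *Etv4*.

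Of 19 tested targets of the YAP coactivator, which reads cell shape and density, 7 were called (36.8%), against 22.8% of all genes tested. All 7 were lowest in mouse 3. *Ccn2* was at 126, 44.8 and 10.2 CPM and *Ccn1* at 46.2, 12.3 and 5.57 CPM, both matricellular proteins and both highest in mouse 1. *Amotl2*, a YAP-binding junction protein, was at 35.8, 43 and 4.64 CPM and was low in mouse 3 only. *Id3*, a BMP target that blocks differentiation factors, was also low in mouse 3 at 518, 561 and 170.4 CPM (chi-square adjusted p = 2.60e-105). Of the Wnt response genes 4 of 16 tested were called, a share near the 22.8% of all genes tested. All 4 were lowest in mouse 3, as were 59.4% of all called genes. They included *Axin2*, a feedback inhibitor of the pathway, at 40.8, 37.4 and 15.3 CPM.

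The cornified envelope genes largely shared 1 order. Of 13 small proline-rich genes tested, 10 were called (76.9%), all lowest in mouse 3 and 9 of them highest in mouse 2. Their summed level was 3515, 5989 and 1897 CPM. *Sprr2f*, whose upstream sequence is printed above, was at 1567, 3144 and 690.3 CPM, from 4338, 8921 and 1487 counts. *Sprr2d* was at 322, 617 and 169 CPM, *Sprr2h* at 122, 162 and 49.7 CPM and *Sprr3* at 83.1, 197 and 18.1 CPM. *Sprr3*, which lacks a matched AP-1 site in the printed window, had a log2 range of 3.37, against 2.19 for *Sprr2f*. *Sprr1a* and *Sprr1b*, which hold matches, were at 599.7, 987 and 566 CPM and at 557, 555 and 315 CPM, respectively, and did not reach 2-fold. Whether a match bears on the range was not tested. *Sprr2a3* was highest in mouse 1 at 61.8, 25 and 9.28 CPM, but 80.1% of its 3′ end sequence is shared with other genes, so its level is uncertain.

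All 6 late cornified envelope genes tested were called, all lowest in mouse 3, and 5 were highest in mouse 2. They were *Lce3* members, for example *Lce3a* at 52.7, 115 and 17.6 CPM and *Lce3c*, part of whose 3′ end is shared, at 67.6, 87.4 and 33.9 CPM. Of 18 listed genes 16 had a count, and the *Lce1* members stayed under 30 counts. *Crct1*, a neighbouring gene with a cysteine-rich product, was at 128, 395 and 94.2 CPM and stood apart in mouse 2. On GRCm39 these genes lie together on chromosome 3. Between bases 91987578 and 93306749, 24 genes were tested, 20 were called, 19 of the 20 were lowest in mouse 3 and 18 highest in mouse 2. The bounds of this interval were set by the listed genes and by *Crct1*, *Rptn*, *Loricrin* and *Ivl*, chosen with earlier results known.

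Kallikreins, secreted serine proteases that loosen contacts between squamous cells, followed the same order from another chromosome. Of 7 tested, 6 were called, and all 6 were highest in mouse 2 and lowest in mouse 3. *Klk14* was at 91, 216 and 48.3 CPM and *Klk10* at 32.9, 81.1 and 25.1 CPM. *Klk8* was the exception at 84.9, 104 and 122 CPM. *Cnfn*, cornifelin, was at 62.9, 169 and 31.6 CPM (chi-square adjusted p = 7.04e-62) and *Cdsn*, corneodesmosin, at 17.7, 43 and 10.7 CPM. *Ivl*, involucrin, was at 44.8, 62.4 and 45.5 CPM and *Ppl*, periplakin, at 166, 275 and 189 CPM, neither over 2-fold. *Krtdap*, a secreted product of differentiating keratinocytes, was highest in mouse 1 at 552, 361 and 231 CPM. Markers of the other cell types listed above did not reach 30 CPM in any of the 3 libraries, nerve markers excepted, which were 56.4, 89.9 and 79.4 CPM, nearly all from *Mbp*.

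Suprabasal and stress keratins did not follow 1 order, and 6 of 7 were called. *Krt6b* was at 2797, 1425 and 561 CPM and fell from mouse 1 to mouse 3. *Krt16*, a partner of keratin 6 in activated epithelium, was at 382, 124 and 115 CPM and stood apart in mouse 1 (chi-square adjusted p = 2.62e-122). *Krt4*, a keratin of wet stratified mucosa, had the reverse pattern at 14.8, 104 and 101 CPM and was low in mouse 1 only (chi-square adjusted p = 4.92e-41). Its usual partner *Krt13* was at 676, 850.1 and 371 CPM, and *Krt10*, of dry epidermis, at 539, 502 and 224 CPM, both lowest in mouse 3. *Krt6a* was at 4802, 4199 and 3485 CPM and was not called.

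Of the basal duct keratins 1 of 4 were called, and of the simple duct keratins 2 of 5. *Krt15*, of basal progenitors, was at 413, 956 and 1180.5 CPM and was lowest in mouse 1. *Krt18* was at 159, 335 and 440.1 CPM and *Krt7* at 784, 1051 and 1529.5 CPM, both rising from mouse 1 to mouse 3, though *Krt7* stayed just under 2-fold at a log2 range of 0.96. *Krt8*, the partner of *Krt18*, was not called at 73.7, 61.7 and 65 CPM. *Krt23* was highest in mouse 2 at 39.7, 92 and 20.0 CPM. *Krt14* and *Krt5* had log2 ranges of 0.87 and 0.69 and were not called.

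Secreted defence proteins were lowest in mouse 1 in 5 of 7 called genes, of 9 tested. *Wfdc18*, of the whey acidic protein family, was at 3.97, 18.7 and 48.7 CPM (log2 range 3.32, chi-square adjusted p = 4.86e-24). *Lcn2*, lipocalin 2, which withholds iron from bacteria, was at 15.2, 81.1 and 69.2 CPM. *Ltf*, lactoferrin, and *Pip*, prolactin-induced protein, were at 0.361, 6.34 and 7.89 CPM and at 0.361, 8.46 and 9.75 CPM, respectively, each with 1 count in mouse 1. *Wfdc2* was at 611, 929.7 and 1429.7 CPM. *Slpi*, a protease inhibitor of saliva, was instead lowest in mouse 3 at 600.1, 489 and 132 CPM (chi-square adjusted p = 2.23e-140). *Cxcl17*, a mucosal chemokine, and *Lbp*, which binds bacterial lipopolysaccharide, shared the low level in mouse 1 at 3.97, 23.3 and 29.2 CPM and at 8.67, 56 and 41.8 CPM, respectively. *Serpina3m*, a clade A serpin, was at 0.723, 18 and 23.7 CPM.

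Of 10 fluid secretion genes tested, 5 were called, 3 of them lowest in mouse 1 and 2 lowest in mouse 3. *Atp1b1*, the β subunit of the sodium pump, was at 105, 297 and 372 CPM (chi-square adjusted p = 4.21e-83). *Slc12a2*, the sodium, potassium and chloride cotransporter of the basolateral membrane, was at 46.6, 103 and 147 CPM. *Aqp5* was at 9.39, 10.9 and 22.7 CPM, from 26, 31 and 49 counts, and its log2 range of 1.19 dropped to 0.89 after the G+C correction, where it was not called. *Ano1*, the calcium-activated chloride channel, was lowest in mouse 3 at 158, 138 and 71.5 CPM, and so was *Xbp1*, a transcription factor of secretory cells, at 43.7, 64.1 and 23.7 CPM.

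**Figure D5:**
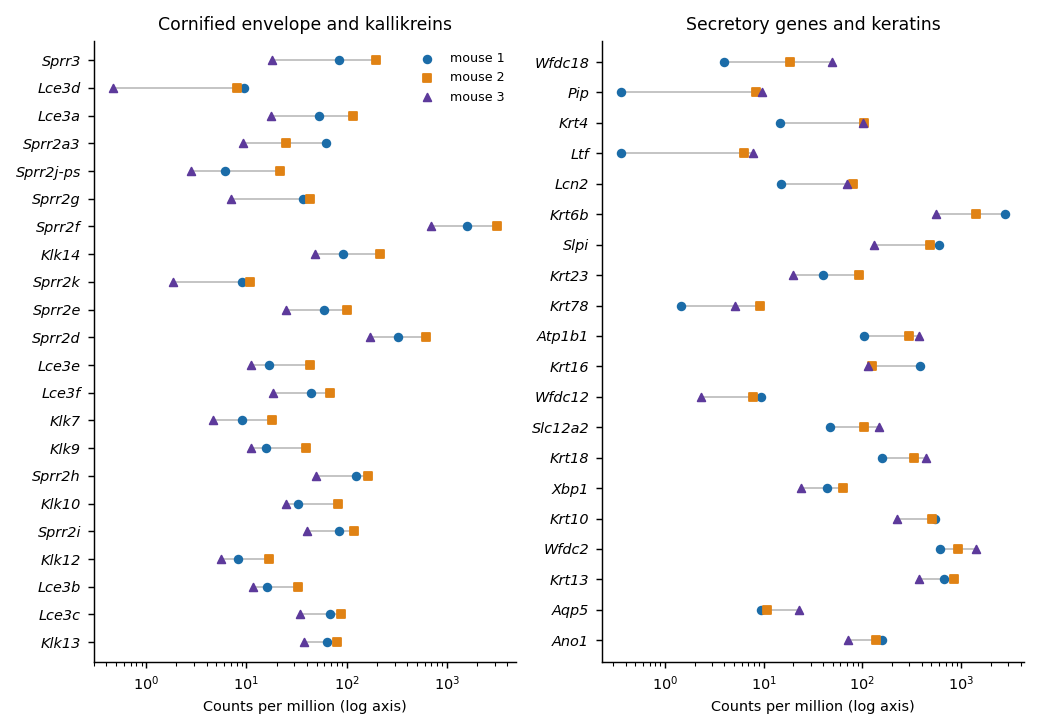
Levels of the called small proline-rich, late cornified envelope and kallikrein genes (left) and of called secretory genes and keratins (right), in CPM on a log axis, 1 symbol per mouse, ordered by log2 range from the top. On the left mouse 3 is lowest at every gene. On the right mouse 1 is lowest at 11 of the 20 genes, among them *Wfdc18*, *Krt4* and *Lcn2*.

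Transcription factors of squamous differentiation were called in 8 of 17 cases, all 8 lowest in mouse 3. *Prdm1*, a repressor needed for terminal keratinocyte differentiation, was at 24.6, 12.3 and 1.86 CPM, from 68, 35 and 4 counts. *Grhl1*, a regulator of desmosomal cadherins, was at 119, 118 and 32.5 CPM, level in mice 1 and 2. *Klf5* was at 356, 215 and 132 CPM and *Klf4* at 598, 382 and 285 CPM, both highest in mouse 1. *Trp63*, the master factor of basal cells, was at 171, 132 and 72.9 CPM (chi-square adjusted p = 4.46e-19). *Tfap2a* was level at 56.4, 56.7 and 56.6 CPM, and *Ehf* and *Pitx1* were at 292, 443 and 568 CPM and at 358, 323 and 609 CPM, respectively, highest in mouse 3 but not called. Clade B serpins, intracellular protease inhibitors of squamous cells, were called in 7 of 11 cases, all lowest in mouse 3. *Serpinb2* was at 163, 97.6 and 27.4 CPM and *Serpinb5*, maspin, at 143, 91.3 and 58 CPM. *S100a9*, a subunit of calprotectin, was at 208, 170.2 and 49.2 CPM and *S100a14* at 618, 762 and 212 CPM.

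Notch signalling, in which a ligand on 1 cell activates a receptor on its neighbour, had 9 of 15 genes called (60%). Of the 9, 6 were lowest in mouse 3, and the other 3 were highest in mouse 3 and lowest in mouse 1. The ligand gene *Jag1* was at 199, 123 and 78.4 CPM and fell from mouse 1 to mouse 3 (chi-square adjusted p = 1.82e-28). *Dll1*, another ligand gene, was at 18.8, 13.4 and 6.96 CPM. *Lfng*, a glycosyltransferase that tunes the receptor's response to its ligands, was highest in mouse 3 at 14.1, 26.8 and 59.9 CPM. The receptor gene *Notch1* was not called at 221, 267 and 281 CPM, and *Notch2* was at 19.9, 30.7 and 9.28 CPM. The coactivator gene *Maml1* was at 21, 10.9 and 2.79 CPM. The target genes *Hes1* and *Nrarp* were at 113, 96.6 and 52.5 CPM and at 86.3, 56.4 and 31.6 CPM, respectively, both lowest in mouse 3, and *Hey1* was at 13.4, 14.4 and 23.2 CPM and was not called. None of these genes was called at day 5, where *Jag1* was at 185, 166 and 191 CPM. Of the 32 markers named by the study, 9 were called, which is 28.1% and near the share of all genes. The 9 were *Krt18*, *Cldn4*, *Jag1*, *Cd44*, *Cd164*, *Trp63*, *Lgals7*, *Aqp5* and *Hes1*. *Lgals7*, galectin 7, was at 125, 172 and 288 CPM. *Cldn4*, a tight junction claudin, was highest in mouse 2 at 206, 403 and 159 CPM.

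Hypoxia-inducible factor (HIF) targets outside glycolysis were called in 11 of 22 cases, 10 of the 11 lowest in mouse 3. *Car9*, a membrane carbonic anhydrase, was at 89.6, 27.8 and 11.6 CPM (log2 range 2.85, chi-square adjusted p = 6.10e-41). *Egln3*, a prolyl hydroxylase that marks HIF for destruction, was at 714, 536 and 309.6 CPM, *Slc2a1*, the glucose transporter GLUT1, at 510.1, 397 and 189.9 CPM and *Vegfa* at 224, 177 and 76.1 CPM. These fell from mouse 1 to mouse 3. *Ndufa4l2*, a HIF-induced mitochondrial protein outside that list, was at 34, 9.52 and 6.96 CPM. *Plin2*, which coats lipid droplets, had the opposite order at 73.3, 116 and 227 CPM. Glycolytic genes were called at 20.8%, under the share of all genes.

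NRF2 and antioxidant genes were called in 11 of 21 cases, 9 of the 11 lowest in mouse 3, as were 59.4% of all called genes. *Nqo1*, a quinone reductase, was at 117, 56.7 and 20.9 CPM (chi-square adjusted p = 1.89e-36), and *Slc7a11*, the cystine transporter, at 134, 61 and 44.6 CPM. *Prdx1* was at 606, 496 and 236 CPM. *Hmox1*, heme oxygenase 1, and *Gpx2*, an epithelial glutathione peroxidase, were highest in mouse 3 at 34, 56.7 and 72.4 CPM and at 195, 201 and 398 CPM, respectively. The list's genes for the rate-limiting step of glutathione synthesis, *Gclc* and *Gclm*, were at 492, 557 and 357 CPM and at 357, 246 and 288 CPM, respectively. Neither was called.

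The transcripts encoded in mitochondrial DNA set mouse 1 apart. Of 7 protein genes tested, 6 were called, all highest in mouse 1, and the sum was 22627, 9256 and 9240.3 CPM. Of the 13 genes in this sum 8 had any count at day 7. The 3′ ends of *mt-Co1*, *mt-Co2* and *mt-Co3* are 100%, 100% and 99.6% shared with other genes. The sum is therefore not a measure of all mitochondrial mRNA. *mt-Nd1*, a subunit of complex I, was at 4897, 2086 and 2089 CPM, *mt-Nd4* at 3846, 1963 and 1905 CPM and *mt-Cytb*, of complex III, at 2077, 1043 and 579 CPM. *mt-Nd2* was at 9902, 3373 and 3789 CPM, with 31.9% of its 3′ end shared with other sequences. At day 5 the same sum was 25981, 27155 and 26758 CPM and none was called. The mitochondrial ribosomal RNAs were also highest in mouse 1 but under 2-fold. The nuclear genes of the respiratory chain were called in 11 of 54 cases (20.4%), under the share of all genes.

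Of 82 ribosomal protein and translation genes tested, 31 were called (37.8%), and 30 of them were lowest in mouse 3. The summed level of the 82 was 50241, 59912 and 47433 CPM. The 51 not called held most of it, at 39786, 46555 and 41951 CPM. *Rps27a* was at 469, 713 and 166 CPM, *Rpl9* at 310.4, 356 and 109.6 CPM and *Rpl11* at 831, 864 and 374 CPM. These 3 share no 3′ end sequence with other genes. Another 15 members were highest in mouse 3, but 14 of these 15 were not called. Among the 14, *Rps20* was at 1877, 2383 and 3428 CPM and *Rpl14* at 689.7, 901 and 1301 CPM. The 30 genes had a median G+C content of 45.9% in their last 500 bases and a median transcript length of 1229.5 bases, against 50.8% and 1545 bases for the 15. Many of these genes have near-identical copies, and a median of 12.5% of the 3′ end sequence of the 30 was shared with other genes, so single values among them are uncertain.

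Most called genes of ribosome assembly were highest in mouse 3. Of 30 ribosome biogenesis genes tested, 10 were called (33.3%), and 8 of the 10 were highest in mouse 3. *Dkc1*, the pseudouridine synthase dyskerin, was at 147, 166 and 326 CPM (chi-square adjusted p = 2.84e-47), *Wdr43*, of the small subunit processome, at 142, 238 and 327 CPM and *Pes1*, of the large subunit pathway, at 46.2, 55.7 and 102 CPM. *Fbl* and *Gar1* had the opposite order at 17, 17.6 and 6.96 CPM and at 31.4, 28.2 and 11.1 CPM, respectively, and 53.4% of the 3′ end of *Fbl* is shared.

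Cell cycle genes did not share 1 order. Of 34 replication genes, 10 were called (29.4%), 7 highest in mouse 3. *Mcm5* and *Mcm7*, of the replicative helicase, were at 29.99, 27.8 and 79.8 CPM and at 129, 81.4 and 185 CPM, and *Lig1*, DNA ligase 1, at 162, 141 and 286 CPM. *Tk1* and *Rrm2*, which supply nucleotides, were highest in mouse 1 at 91.4, 37.7 and 32.5 CPM and at 56.4, 37 and 22.7 CPM, respectively. Of 34 mitosis genes, 9 were called (26.5%), 8 highest in mouse 1. *Cdk1* was at 98.6, 61.3 and 44.6 CPM, *Cdc20*, an activator of the anaphase-promoting complex, at 49.9, 24.7 and 20.9 CPM and *Kif20a*, a kinesin of cytokinesis, at 36.5, 20.4 and 13 CPM. The summed level was 1459, 1152 and 1696 CPM for replication and 2402, 1839 and 2223 CPM for mitosis. The shares of both lists were close to that of all genes.

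Genes that set 1 culture apart, chosen by the gap to the nearest other library, came from several programmes. Besides *Fos*, *Nrg1* and *Krt16*, mouse 1 was high at *Flrt3*, an FGF receptor-binding membrane protein, with 53.1, 9.16 and 9.75 CPM (chi-square adjusted p = 7.83e-29). Mouse 2 was high at *Ddah2*, a relative of the enzyme that breaks down methylated arginines, with 10.5, 47.9 and 13 CPM, and at *Crct1*. *Ceacam1* was at 32.5, 93.7 and 26.9 CPM, with 89.6% of its 3′ end shared with other genes. Only 4 genes averaging 10 CPM or more were low in mouse 2, namely *Plod1*, *Bub1b*, *Lgals1* and *Bop1*. *Lgals1*, galectin 1, was at 129, 61.7 and 131 CPM. Mouse 3 was low at *Dusp1*, *Amotl2*, *Bcar1*, *F3*, *Unc50* and *Fam89a*. *Bcar1*, an adaptor of integrin signalling, was at 47, 33.1 and 4.64 CPM, and *F3*, tissue factor, at 17.3, 15.9 and 1.86 CPM. Mouse 3 was high at *Ptpru*, *Etv4*, *Nsun4*, *Mcm5*, *Spr* and *Prpf31*. *Ptpru*, a receptor phosphatase, was at 15.2, 18 and 50.6 CPM and *Prpf31*, a splicing factor, at 24.9, 29.96 and 78 CPM. *Malat1*, an abundant nuclear RNA, was at 1759, 3875 and 2548 CPM and was lowest in mouse 1.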

How the data were processed

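Day 7 mSGOs of 3 mice and day 5 mSGOs of the same mice were profiled by 3′ RNA-seq from 100 ng of RNA with RIN values over 9. The authors deposited raw whole-number counts, listed by Ensembl ID in a file for each library, on GRCm39. The submitters' processing notes also name edgeR. The aligner, the annotation release and the strand setting are not given in the sources used here, so reads of overlapping or antisense genes cannot be told apart. The 5 closing rows of each file, which name no gene, held 9.12% to 9.74% of reads at day 7 and were left out. Names came from GENCODE vM39 by exact ID, for 43465 of 47643 IDs (91.2%).

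CPM were counts divided by the library total of gene rows and multiplied by 1000000. Genes with at least 30 counts over the 3 libraries were tested by a Poisson chi-square of homogeneity (2 degrees of freedom, two-sided) with Benjamini-Hochberg adjustment. Called genes had an adjusted p under 0.05 and more than 2-fold between the highest and the lowest library on log2(CPM + 1). The sources used here name no molecular identifiers, so p-values and the 3-count floor for a gene at 0 cover counting error only. The script was tested on simulated data. Alternatives were TMM of edgeR 4.0.16, size factors of DESeq2 1.42.0, upper quartile scaling, other filters, folds and pseudocounts, a likelihood ratio test of edgeR with the dispersion of the day 5 libraries, thinned counts and leaving out each library. The G+C correction was chosen after seeing the data. It took the median deviation of each library in 20 bins of G+C content over the last 500 bases of the longest protein-coding transcript, or the longest of any type.

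Named genes were the 25 IDs with the highest mean, 6 per culture and direction with the largest gap and a mean of at least 10 CPM, up to 4 called members per list with the largest range, and 32 study markers. Predicted loci were passed over, and some named genes are not reported here. Other members were given to show list members that did not differ or that belong to a described pattern, and were chosen after their values were seen. The members and lists were chosen with earlier results of these data known. The 67 lists hold 1208 genes, of which 1201 were found. Shared 3′ ends were the share of 50-base stretches in the last 300 bases that also occur in transcripts of other genes. Scripts ran in R 4.3.3, numpy 2.4.6, scipy 1.17.1 and pandas 2.3.3.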

Additional observations from a re-analysis of the deposited data

How the results depend on the processing

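The count of 2287 differing genes lay between 2022 and 2370 under TMM, DESeq2 and upper quartile scaling, without the most abundant ID, without a count filter, with a pseudocount of 0.5, with the edgeR likelihood ratio test, after thinning and after the G+C correction. It was 1230 with at least 150 counts, 4376 over 1.5-fold and 269 over 4-fold, as fewer genes or another fold enter by construction. Leaving out 1 library gave 402 to 1600 genes, namely 402 without mouse 3, 1187 without mouse 1 and 1600 without mouse 2. With 2 libraries left, a gene that differed only from the absent library cannot be called. The lists above the share of all genes numbered 43, and 32 to 45 with 1 library left out. The 50 most abundant IDs held 33.0% to 36.1% of counts with 1 library left out and 20.8% without the most abundant ID. Of the 263 named genes, none that was called in the main or the alternative setting changed the sign of its difference. Sign changes of genes called in neither were not recorded. Only the scalings, the thinning and the G+C correction could change a sign, because the other settings leave the order of the libraries as it was. Called genes differ by more than 1 on the log2 scale. TMM moved the median of mouse 1 minus mouse 2 from -0.13 to -0.01. The G+C offsets of mouse 3 were -0.14 in the lowest bin and 0.21 in the highest. A change of sign was therefore hardly possible for called genes, and its absence is no sign of robustness. After the G+C correction 10 of the 263 named genes were no longer called and 2 were newly called. No paired analysis was possible because each mouse gave 1 library at day 7 and the comparison is among the libraries of 1 day. Depth limits genes under 30 counts, which were not tested.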
